A study of Mus musculus with 2 samples.

Results

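The Bcl2 family genes followed here in lung endothelial cells (ECs) were the anti-apoptotic Bcl2, Bcl2l1 (encoding Bcl-xL) and Mcl1, the pore-forming effectors Bax and Bak1, and the BH3-only genes Bcl2l11 (Bim), Bbc3 (Puma) and Pmaip1 (Noxa). They were picked by name, with their ratios between the libraries already known, and all 8 of the 31053 listed genes were found and had UMIs. Each gene was therefore described by its levels, with no test. UMIs (unique molecular identifiers, each tagging 1 captured transcript) were summed over the cells of an EC class in a library and given as counts per 1000000 UMIs of that class (CPM).

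The control library came from C57BL/6 mice of WT genotype that received PBS in the tail vein, and the metastatic library from mice of the same strain and genotype that received 200000 B16-F10 melanoma cells each by the same route. B16-F10 is a mouse skin melanoma line that seeds the lungs after intravenous injection, and the cells carried the CellTracker green dye. According to the study's methods the mice were young adult males. Lungs were taken at 6 h, and PECAM1-positive cells were sorted without a gate against leukocytes. Each group was 1 library of 2 pooled mice, so differences between mice cannot be told apart from differences between treatments. The intervals below are 95% intervals that cover counting error only.

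Cells commit to mitochondrial apoptosis when Bax or Bak1 protein forms pores in the outer mitochondrial membrane. Bcl2, Bcl-xL and Mcl1 proteins hold these effectors in check, and BH3-only proteins such as Bim, Puma and Noxa relieve that hold when a cell is stressed. Bcl-xL is a long-lived protein, whereas Mcl1 protein is turned over rapidly, and the transcript levels below say nothing about protein amounts.

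After the filter of 1000 to 5000 genes and under 20% mitochondrial UMIs, 7134 control and 6466 metastatic cells remained, of 67929614 and 64733724 UMIs in the libraries. Classes were taken from 2 or more of their markers: general capillary (Gpihbp1, Aplnr, Kit, Lpl), aerocyte, the large capillary EC of the alveolar wall (Ednrb, Fibin, Tbx2), vein (Slc6a2, Car8, Bst1) and artery (Gja5, Bmx, Fbln5). This gave 5020 and 4519 general capillary ECs, 1364 and 1086 aerocytes, 247 and 304 vein ECs, and 63 and 59 artery ECs in the control and metastatic library. Of 5 further markers of each class, all 5 were highest in their own class for aerocytes and vein ECs in both libraries, and 4 of 5 for artery ECs, where Sox17 was highest in general capillary ECs. Of those of general capillary ECs, Ptprb was highest in vein or artery ECs in either library and Npr3 in artery ECs of the metastatic library. The libraries shared 16 called barcodes. All ratios were computed again without them, and none left the counting interval of its main value.

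Bcl2l1 had the clearest difference between the libraries. In general capillary ECs its level was 249 CPM (interval 244 to 255, 7997 UMIs) in the control library and 134 CPM (130 to 139, 4073 UMIs) in the metastatic library. Put as a log2 ratio of the metastatic to the control library, this was -0.89 (-0.94 to -0.83), or 54.0% of the control level. The gene stood at the low end of the whole transcriptome, with 104 of 12165 genes with at least 50 UMIs (0.855%) having a lower ratio, and 9 of the 3629 genes whose mean level was 50 CPM or more. A log2 ratio of -0.5 or lower was met by 3.44% of the genes tested in general capillary ECs, and Bcl2l1 was the only member among them. These ranks were known when the gene was chosen and are given as a description.

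The same direction was found in the other EC classes. Aerocytes had 383 CPM in the control library and 239 CPM in the metastatic library, a ratio of -0.68 (-0.76 to -0.61). Vein ECs had 199 and 106 CPM (-0.91, -1.13 to -0.69), and artery ECs 231 and 123 CPM (-0.91, -1.38 to -0.44) on 114 and 60 UMIs. The intervals of the libraries did not overlap in any of the 4 classes. The ratio of aerocytes was less negative than that of general capillary ECs by 0.21 (0.12 to 0.30), whereas those of vein and artery ECs differed from it by -0.022 (-0.24 to 0.20) and -0.017 (-0.47 to 0.44). A ratio of -0.5 or lower was met by 2.61% of genes in aerocytes, 4.62% in vein ECs and 8.11% in artery ECs, where no member was past 0.5 in the other direction, against 9.97% of genes.

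**Figure D1:**
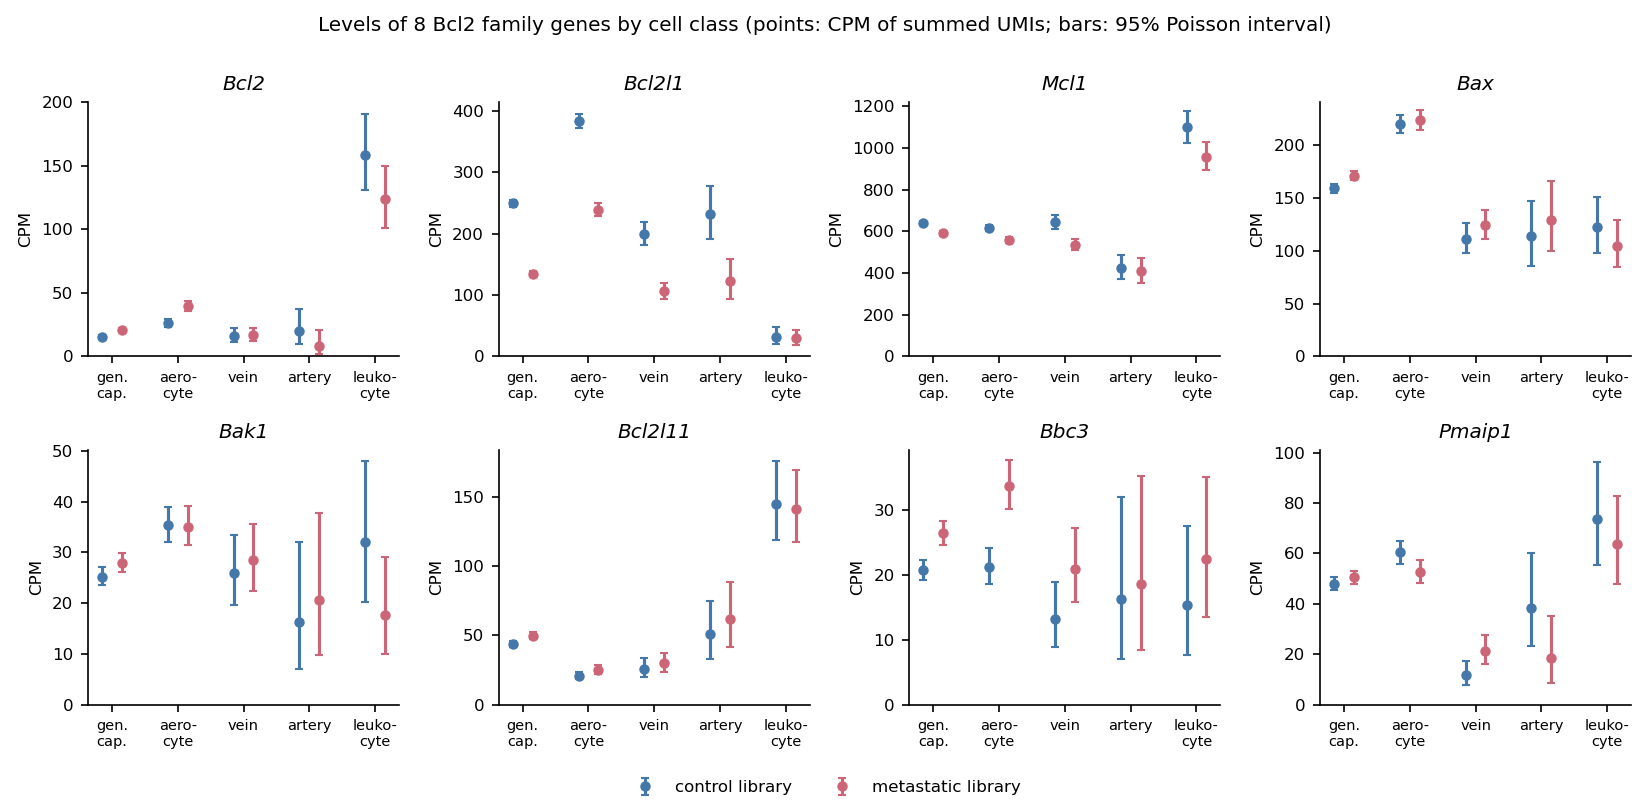
Level of each gene in CPM (vertical axes, each starting at 0) in 4 EC classes and in leukocytes, for the control (blue) and metastatic (red) library; points are summed UMIs and bars 95% Poisson intervals. Bcl2l1 lies lower in the metastatic library in all 4 EC classes, from 249 to 134 CPM in general capillary ECs, and is near 30 CPM in leukocytes of either library.

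Bcl2l1 lies on the minus strand of chromosome 2 (chr2:152780668-152831728, mm10), and no annotated gene overlaps it. RefSeq holds several starts for it, and the 3′ ends counted here do not tell which of them a transcript used. The 250 bases before each of the starts are shown because Bcl2l1 carries the largest difference of the 8 genes in general capillary ECs. They are printed 5′ to 3′ on the gene's strand from GRCm38.p6, with the NF-kB-type match in capitals.
Bcl2l1 start 1 (chr2:152828490-152828739): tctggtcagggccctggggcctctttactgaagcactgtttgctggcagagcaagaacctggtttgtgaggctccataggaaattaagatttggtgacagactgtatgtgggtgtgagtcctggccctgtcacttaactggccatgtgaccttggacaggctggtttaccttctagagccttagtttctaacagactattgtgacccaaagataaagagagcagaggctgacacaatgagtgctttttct
Bcl2l1 start 2 (chr2:152830718-152830967): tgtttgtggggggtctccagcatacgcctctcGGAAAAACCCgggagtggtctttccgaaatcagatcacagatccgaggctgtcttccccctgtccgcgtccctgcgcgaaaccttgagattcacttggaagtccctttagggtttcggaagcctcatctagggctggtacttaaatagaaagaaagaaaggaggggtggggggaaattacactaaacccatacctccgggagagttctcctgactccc
Bcl2l1 start 3 (chr2:152831729-152831978): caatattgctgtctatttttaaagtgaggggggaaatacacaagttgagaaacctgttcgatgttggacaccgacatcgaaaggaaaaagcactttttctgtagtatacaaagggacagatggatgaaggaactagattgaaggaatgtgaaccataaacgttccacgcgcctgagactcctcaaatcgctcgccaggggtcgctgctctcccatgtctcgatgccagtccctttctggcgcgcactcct

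Several elements were searched on both strands of these windows, namely the glucocorticoid response element (GNACA and TGTNC with 3 bases between), the STAT element (TTCNNNGAA), the NF-kB element (GGG and TTTCC with 2 bases between), the forkhead element (TGTTTAC) and the p53 half-site. The letters of the glucocorticoid element were in 0.387% of all 32851 RefSeq promoter windows of this length, and those of the STAT, NF-kB and forkhead elements and of the p53 half-site in 7.02%, 1.41%, 3.17% and 7.13%. Among the 12 windows of 7 members, those of Bcl2l1 start 2, Mcl1 and Bbc3 start 1 held an NF-kB match. The Bcl2l1 match was written GGAAAAACCC on its strand, 218 to 209 bases before the start. Neither the glucocorticoid nor the STAT letters were in any of the 12. A match describes letters in a window and not binding.

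The share of general capillary ECs with a Bcl2l1 UMI was lower in the metastatic library, and the cells with a UMI held slightly fewer of them. Cells were thinned to 2000 UMIs each, which left out 73 control and 58 metastatic general capillary ECs. The share of general capillary ECs with a Bcl2l1 UMI was then 37.7% (36.4 to 39.1) in the control and 22.2% (21.0 to 23.5) in the metastatic library, and such cells held 1.35 and 1.30 UMIs on average. At this depth most cells with a UMI held only 1, whatever the library. The shares therefore cannot tell fewer cells with the transcript from a lower level per cell. Without thinning the shares were 69.9% and 47.9%, at median depths of 5950.5 and 6275 UMIs per cell. In aerocytes the thinned shares were 50.7% and 35.0%, and in vein ECs 32.5% and 17.8%. Leukocytes had the lowest shares of the classes, 7.00% of 100 control and 5.98% of 117 metastatic cells, at median depths of 5108 and 5195 UMIs before thinning. Every EC class lay above the leukocytes of its own library.

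**Figure D2:**
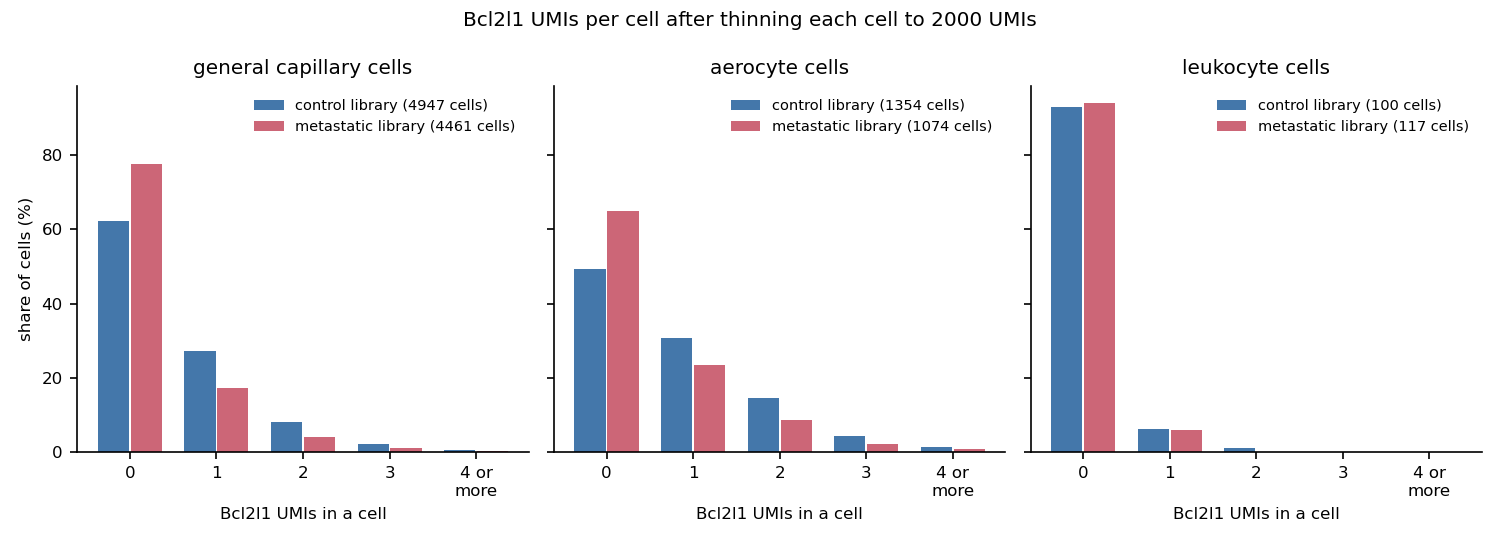
Share of cells (vertical axis, %) with 0, 1, 2, 3 or 4 or more Bcl2l1 UMIs (horizontal axis) after thinning to 2000 UMIs per cell, for general capillary ECs, aerocytes and leukocytes of the control (blue) and metastatic (red) library. Cells without a UMI made up 62.3% of control and 77.8% of metastatic general capillary ECs, and the shares with 1, 2, 3 and 4 or more were all lower in the metastatic library.

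The difference was present at every depth. In general capillary ECs with 2000 to 4000 UMIs the level was 280 CPM in control lungs against 156 CPM in metastatic lungs, a ratio of -0.84 (-1.05 to -0.64). In those with 10000 UMIs or more it was 234 and 124 CPM, a ratio of -0.92 (-1.05 to -0.79). Over the 5 depth bins the ratio lay between -1.01 and -0.80. The level itself was lower in the deepest than in the shallowest bin of both libraries, at 234 against 280 CPM in the control and 124 against 156 CPM in the metastatic library.

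**Figure D3:**
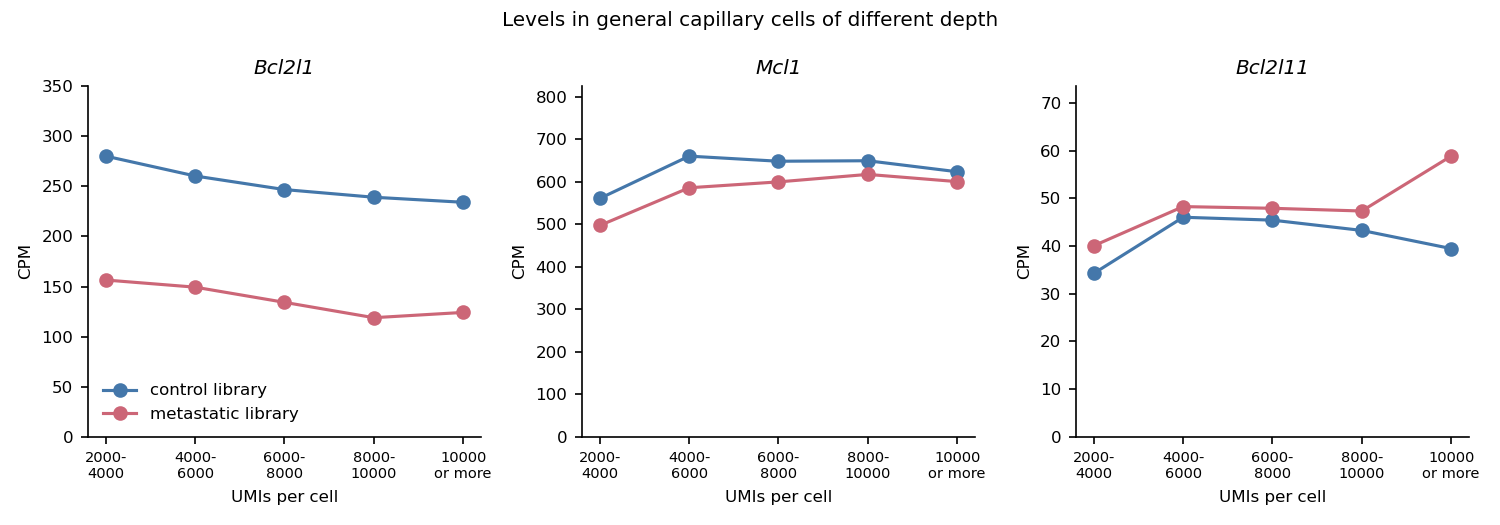
Level in CPM (vertical axes from 0) of Bcl2l1, Mcl1 and Bcl2l11 in general capillary ECs of 5 depth bins (horizontal axis, UMIs per cell) for the control (blue) and metastatic (red) library. Bcl2l1 is lower in the metastatic library in every bin, Mcl1 lies slightly lower, and Bcl2l11 is higher, by most in the deepest cells.

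RNA of other cell types also moved between the libraries. In general capillary ECs the summed level of 9 leukocyte markers was 387 CPM in control lungs against 289 CPM in metastatic lungs, that of 5 erythroid markers 1959 and 824 CPM, of 4 epithelial markers 1616 and 952 CPM, and of 4 platelet markers 175 and 271 CPM. All markers of these lists had UMIs in general capillary ECs of both libraries. Leaving out cells with 10 or more UMIs of these and mesenchymal markers kept 4551 and 4098 general capillary ECs, and Bcl2l1 was then at -0.92. In aerocytes the epithelial markers were at 609 and 87.9 CPM, with Epcam at 0 in the metastatic library, the erythroid markers at 1295 and 847 CPM, the platelet markers at 76.5 and 157 CPM and the leukocyte markers at 92.6 and 96.96 CPM. Without the cells at this limit, aerocytes had ratios of -0.69 for Bcl2l1, 0.57 for Bcl2 and 0.69 for Bbc3. In artery ECs the leukocyte markers were at 26.4 and 426 CPM, the platelet markers at 14.2 and 148 CPM, the erythroid markers at 397 and 206 CPM and the epithelial markers at 136 and 86.3 CPM. Of the 9 leukocyte markers, 5 were at 0 in the control and 3 in the metastatic artery ECs, and Bcl2l1 was at -1.10 without the cells at this limit. The melanoma markers Dct, Pmel, Tyrp1, Mlana and Tyr summed to 1.81 and 2.34 CPM in general capillary ECs. Bcl2l1 was at 82.3 CPM in control and 89.2 CPM in metastatic barcodes with 11 to 50 UMIs, too few for a called cell, a ratio of 0.12 (-0.43 to 0.67).

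Mcl1, whose protein is the short-lived one, was lower by far less. Its level in general capillary ECs was 642 CPM (633 to 650) in control lungs against 593 CPM (585 to 602) in metastatic lungs, a ratio of -0.11 (-0.14 to -0.084). Aerocytes had 618 and 559 CPM (-0.15, -0.20 to -0.094) and vein ECs 644 and 537 CPM (-0.26, -0.37 to -0.16). Of 14 alternatives, 12 kept the vein ratio within its interval and none changed its sign. It was -0.063 without cells holding 2 or more UMIs of other cell types' markers. Subtracting the RNA of barcodes with 11 to 50 UMIs gave -0.046. In artery ECs Mcl1 was at 426 and 409 CPM (-0.058, -0.34 to 0.23), the lowest level of the classes in either library. The median ratio of all genes was 0.022 in general capillary ECs, and 21.99% of them had a lower ratio than Mcl1. Leukocytes had 1099.9 and 959 CPM, above all EC classes.

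Bcl2 went the other way in capillary ECs. In general capillary ECs it was at 15.2 CPM (13.9 to 16.6, 489 UMIs) in control lungs against 20.6 CPM (19.0 to 22.2, 623 UMIs) in metastatic lungs, a ratio of 0.43 (0.26 to 0.61), which was 0.57 when each cell was thinned to 2000 UMIs. Aerocytes had 26.0 and 39.6 CPM, a ratio of 0.61 (0.39 to 0.84), and were past 0.5, which 5.5% of genes in that class reached upwards. Vein ECs had 15.9 and 16.4 CPM (0.052, -0.62 to 0.74), and artery ECs held only 10 and 4 UMIs. Leukocytes, where Bcl2 is known to support lymphocyte survival, had 159 and 124 CPM, so that the EC levels were well below those of leukocytes. Another gene, D630008O14Rik, overlaps Bcl2 on the other strand.

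Summed over the anti-apoptotic genes, general capillary ECs had 906 CPM in control lungs against 748 CPM in metastatic lungs, a ratio of -0.28 (-0.30 to -0.25). The sum was lower in each EC class, by -0.30 in aerocytes, -0.38 (-0.48 to -0.29) in vein ECs and -0.33 (-0.56 to -0.088) in artery ECs. Mcl1 gave most of the UMIs of these sums and Bcl2l1 most of the difference in general capillary ECs.

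Bax and Bak1, the effectors, differed little between the libraries. In general capillary ECs 67.2% and 73.0% of the genes tested had a lower ratio than Bax and Bak1. Bax was at 159 CPM (155 to 163) in control and 171 CPM (167 to 176) in metastatic general capillary ECs, a ratio of 0.11 (0.051 to 0.16). In aerocytes it was at 220 and 223 CPM (0.023, -0.061 to 0.11), and its order of levels, aerocyte over general capillary over artery over vein, was the same in both libraries, although artery and vein ECs overlapped in their intervals. Bak1 was at 25.2 and 27.9 CPM in general capillary ECs (0.14, 0.0041 to 0.29) and at 35.3 and 35.1 CPM in aerocytes (-0.011, -0.23 to 0.20). In general capillary ECs with 2000 to 4000 UMIs the Bax ratio was -0.19 (-0.42 to 0.036). In those with 10000 or more it was 0.30 (0.17 to 0.44). The Bak1 ratio was -0.43 (-1.05 to 0.18) and 0.34 (-0.011 to 0.69) in these bins. The summed effectors had ratios of 0.11 (0.060 to 0.16) in general capillary ECs and 0.019 (-0.060 to 0.097) in aerocytes. Gm45808 overlaps Bax on the same strand and Ggnbp1 overlaps Bak1 on the other, so reads in the shared stretches may be split or lost.

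**Figure D4:**
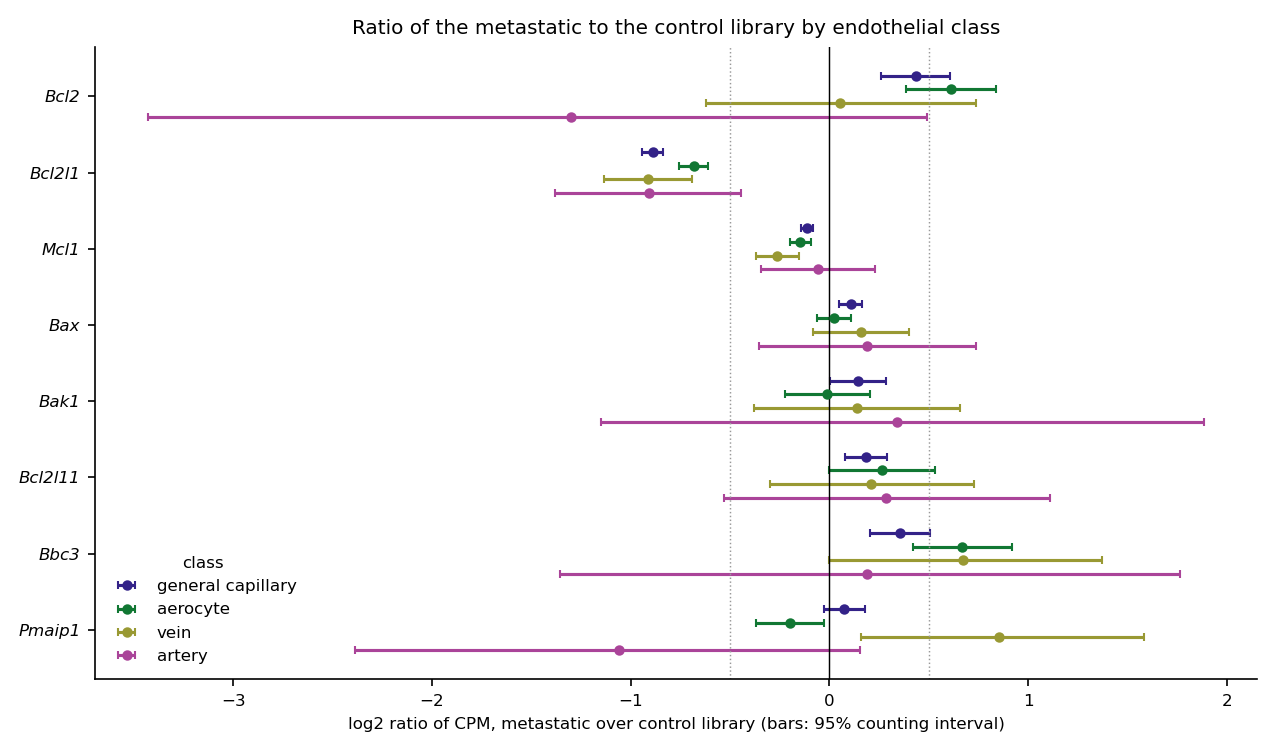
log2 ratio of the metastatic to the control library (horizontal axis) for the 8 genes in general capillary, aerocyte, vein and artery ECs (colors); bars are 95% counting intervals, the solid line marks 0 and the dotted lines -0.5 and 0.5. Bcl2l1 lies below 0 with its whole interval in all 4 classes, Mcl1 in 3 of 4, and the artery intervals are the widest.

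Of the BH3-only genes, Bbc3 differed most in capillary ECs. Its level in general capillary ECs was 20.7 CPM (663 UMIs) in control lungs against 26.4 CPM (799 UMIs) in metastatic lungs, a ratio of 0.35 (0.20 to 0.50). In aerocytes it was 21.2 and 33.7 CPM, a ratio of 0.67 (0.42 to 0.92), larger than that of general capillary ECs by 0.31 (0.031 to 0.60). Vein ECs had a ratio of 0.67 on 29 and 56 UMIs, whose interval reached 0 (-0.00075 to 1.37). The vein value was also 0.67 without the cells that held 10 or more UMIs of other cell types' markers. Thinned to 2000 UMIs it was 2.79, with a Bbc3 UMI in only 2 control and 16 metastatic vein ECs. Subtracting the RNA of barcodes with 11 to 50 UMIs turned the general capillary ratio to -0.0094 and gave 0.46 in aerocytes.

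Bcl2l11, which encodes the Bim that is best known for the death of cells deprived of survival signals, was at 43.6 CPM in control and 49.5 CPM in metastatic general capillary ECs, a ratio of 0.18 (0.077 to 0.29). The value was 0.017 when each cell was thinned to 2000 UMIs, and in the deepest cells it was 0.58 (0.33 to 0.82). Aerocytes had 20.7 and 24.9 CPM, about 1 log2 unit below general capillary ECs of the same library (-1.07, -1.28 to -0.87 in the control and -0.99, -1.20 to -0.79 in the metastatic library). Bcl2l11 had another order of classes than Bcl2l1, with artery and general capillary ECs over vein ECs and aerocytes in both libraries. The neighbors artery and general capillary, and vein and aerocyte, overlapped in their intervals.

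Bcl2l1 itself was higher in aerocytes than in general capillary ECs by 0.62 (0.57 to 0.68) in the control and 0.83 (0.75 to 0.90) in the metastatic library, and lower in vein ECs by -0.32 (-0.47 to -0.19) and -0.35 (-0.53 to -0.17). Aerocytes therefore had the highest Bcl2l1 of the EC classes in both libraries. Their Bcl2l11 was the lowest in value in both, with an interval that overlapped that of vein ECs. In the metastatic library the Bcl2l1 of aerocytes, 239 CPM, was close to the 249 CPM of general capillary ECs in the control library.

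Bcl2l11 (chr2:128126038-128162547, plus strand) and Bbc3 (chr7:16308393-16318205, plus strand) each had a window with the forkhead letters, which FoxO factors are known to bind. They are shown as the windows of BH3-only genes with such a match, with the match in capitals.
Bcl2l11 start 1 (chr2:128125788-128126037): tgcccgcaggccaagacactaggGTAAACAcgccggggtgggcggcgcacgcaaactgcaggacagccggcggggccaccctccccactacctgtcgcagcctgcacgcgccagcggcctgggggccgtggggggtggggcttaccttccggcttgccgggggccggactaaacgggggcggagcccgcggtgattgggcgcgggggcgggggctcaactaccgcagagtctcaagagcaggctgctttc
Bbc3 start 2 (chr7:16310011-16310260): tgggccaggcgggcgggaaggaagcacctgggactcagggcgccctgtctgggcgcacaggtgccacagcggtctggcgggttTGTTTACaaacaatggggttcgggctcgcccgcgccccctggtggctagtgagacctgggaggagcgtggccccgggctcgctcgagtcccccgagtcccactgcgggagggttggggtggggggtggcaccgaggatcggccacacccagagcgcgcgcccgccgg

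The forkhead letters stood 227 to 221 bases before the Bcl2l11 start and 167 to 161 bases before the Bbc3 start. Of the other windows, those of Mcl1 and of Bbc3 start 1 held an NF-kB match and that of Bax a p53 half-site.

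Pmaip1 differed in direction between the classes. General capillary ECs had 48.0 CPM in control lungs against 50.5 CPM in metastatic lungs (0.074, -0.029 to 0.18), and aerocytes 60.4 and 52.6 CPM (-0.20, -0.37 to -0.029). Vein ECs had 11.8 CPM (26 UMIs) and 21.3 CPM (57 UMIs), a ratio of 0.85 (0.16 to 1.58), which was larger than that of general capillary ECs by 0.78 (0.10 to 1.46). Ratios of 0.5 or more were met by 8.01% of genes in vein ECs. Markers of other cells were also higher in vein ECs of the metastatic library, with the leukocyte markers at 47.1 and 727 CPM, the epithelial markers at 121 and 3476 CPM and the erythroid markers at 442 and 1347 CPM. Without the cells that held 10 or more UMIs of such markers, 231 and 275 vein ECs remained and the ratio was 0.84. With 3 or more markers required for the class, 140 and 175 vein ECs remained and the ratio was -0.045. Pmaip1 lies on the plus strand of chromosome 18, and its sequence was not used here.

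The BH3-only genes summed to 112 and 126 CPM in general capillary ECs (0.17, 0.11 to 0.24), to 102 and 111 CPM in aerocytes (0.12, -0.0018 to 0.24), and to 50.8 and 72.1 CPM in vein ECs (0.51, 0.16 to 0.86). In artery ECs the sum was 105 and 98.7 CPM (-0.096, -0.69 to 0.50). The vein sum includes Pmaip1, whose own ratio was -0.045 with 3 or more class markers required.

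Leukocytes, defined by 2 or more of Ptprc, Cd52, Coro1a and Laptm5 in cells that met no EC class and had no Cdh5 UMI, numbered 100 and 118. Their Bcl2l1 was at 32.0 CPM (23 UMIs) in control lungs against 29.5 CPM (25 UMIs) in metastatic lungs, a ratio of -0.12 (-0.997 to 0.76). The interval of its difference from general capillary ECs, 0.77 (-0.050 to 1.59), included 0. Bcl2l11 was at 145 and 141 CPM in leukocytes, above every EC class.

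Within general capillary ECs, cells with an Inhbb UMI, a subunit gene of activins, were compared with the rest at 2000 UMIs per cell. There were 40 such cells in the control and 159 in the metastatic library. In the metastatic library the Inhbb cells had 858 CPM of Mcl1 against 582 CPM in the others, a log2 difference of 0.56 (0.38 to 0.74), 50.3 against 20.9 CPM of Bcl2 (1.27, 0.43 to 2.00, on 16 UMIs) and 233 against 169 CPM of Bax (0.46, 0.11 to 0.80). Bcl2l1 was at 173 against 143 CPM (0.27, -0.15 to 0.66). The 40 control cells had 112.5 CPM of Bcl2l1 against 257 CPM in the others (-1.19, -2.32 to -0.26) on 9 UMIs, and Mcl1 was at 512.5 against 640.1 CPM (-0.32, -0.80 to 0.12). Between the libraries Bcl2l1 and Mcl1 had ratios of opposite sign in the Inhbb cells and in the rest. The Bcl2l1 ratio of the Inhbb cells was 0.62 (-0.41 to 1.82), on 9 and 55 UMIs, with an interval that included 0. It was -0.84 (-0.94 to -0.74) in cells without an Inhbb UMI. For Mcl1 the ratios were 0.74 (0.27 to 1.255) and -0.14 (-0.19 to -0.084). Bcl2, Bax and Bak1 had ratios above 0 in both sets of cells, with intervals that included 0 in the Inhbb cells. The BH3-only genes were below 0 in the Inhbb cells and above it in the rest, with intervals that included 0 in both.

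Cells with 3 or more of 8 interferon-stimulated genes numbered 382 and 475. Their Bcl2l1 was at 233 CPM in control lungs against 117 CPM in metastatic lungs (-0.996, -1.35 to -0.65), and the other general capillary ECs were at 257 and 148 CPM (-0.80, -0.90 to -0.70). Within the metastatic library Bcl2l1 was lower in the interferon cells by -0.34 (-0.63 to -0.056), and within the control library by -0.14 (-0.37 to 0.077). Their Mcl1 differed from that of the other cells by 0.040 (-0.094 to 0.17) in the control and by -0.021 (-0.15 to 0.11) in the metastatic library. In control interferon cells Bcl2 was at 28.8 CPM against 13.6 CPM in the others (1.08, 0.36 to 1.75). In the metastatic library it differed by 0.010 (-0.72 to 0.67). Between the libraries Bcl2 had a ratio of -0.38 (-1.32 to 0.55) in the interferon cells and 0.69 (0.35 to 1.04) in the others. Bcl2l11 differed by -0.22 (-0.80 to 0.32) in the control and by -0.54 (-1.11 to -0.0055) in the metastatic library. In both, the intervals for Bax, Bak1, Bbc3 and Pmaip1 included 0.

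Among the other survival genes of the family, 4 of 5 had at least 50 UMIs in general capillary ECs. The near-identical copies Bcl2a1a, Bcl2a1b and Bcl2a1d, whose reads cannot be assigned with certainty, were past 0.5 at 0.57 (-0.0055 to 1.15), 0.78 (0.35 to 1.22) and 0.94 (0.35 to 1.56), all at under 4 CPM in either library. A1 proteins are mostly known from leukocytes. Bcl2l2 (Bcl-w) was at 19.4 and 18.5 CPM (-0.067, -0.23 to 0.10). A ratio of 0.5 or more was met by 6.19% of genes in general capillary ECs.

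None of the 4 tested BH3-only or effector relatives passed 0.5. Bid, which links death receptors to mitochondria, was at 0.42 (0.069 to 0.78), Bmf at 0.41 (0.11 to 0.70) and Bik at 0.10 (0.0083 to 0.20). The 10 genes of the apoptosome and caspases reported here lay between -0.42 and 0.27. Casp8, the initiator caspase of death receptors, was at 59.3 and 71.3 CPM (0.27, 0.18 to 0.35), Diablo, which relieves caspase inhibitors, at 29.5 and 35.1 CPM (0.25, 0.12 to 0.38) and Endog, a mitochondrial nuclease, at 19.2 and 14.4 CPM (-0.42, -0.60 to -0.24). The median ratio of these 10 genes was 0.15. None of 6 caspase inhibitors passed 0.5, with Xiap at 0.13, Birc5 at 0.11 and Cflar, which blocks caspase 8 activation, at 0.073.

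Of 7 death receptors and adaptors, Fas was lower, at 541 and 382 CPM (-0.50, -0.54 to -0.47), and Tnfrsf10b, the mouse TRAIL death receptor, higher, at 3.40 and 7.13 CPM (1.07, 0.73 to 1.42). Tnfrsf1a, the main TNF receptor of ECs, was at 278 and 331 CPM (0.25). The list of p53 targets also held Trp53, the p53 gene itself. Among its 11 tested genes 1 was higher and 1 lower, with a list median of 0.032. Of all genes tested, 6.19% were higher and 3.44% lower by 0.5 or more. Phlda3 was at 52.99 and 79.9 CPM (0.59), and Cdkn1a, the cell cycle inhibitor p21, at 1759 and 1181 CPM (-0.57). Eda2r was at 0.50 on 30 and 40 UMIs. Of 7 endoplasmic reticulum stress genes, Chac1 was past 0.5 (0.55, on 70 and 97 UMIs), Xbp1 was at 0.39 and the chaperone gene Hspa5 at 0.24.

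Of 6 genes chosen around the regulation of Bim, 2 were lower by 0.5 or more, against 3.44% of all genes tested in general capillary ECs. Not all of the 6 are themselves regulators of Bim. The FoxO genes Foxo1 and Foxo4 and the gene Dusp6 were not past 0.5 in either direction. Foxo3, a FoxO factor, was at 48.5 CPM in control lungs against 29.5 CPM in metastatic lungs (-0.72, -0.84 to -0.60). Txnip, which responds to glucose and to FoxO factors, was at 1606 and 1036 CPM (-0.63). Spry4, an inhibitor of growth factor signaling, was higher, at 45.2 and 65.9 CPM (0.54). In aerocytes Foxo3 was at -0.64, on 652 and 347 UMIs.

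Of 10 glucocorticoid-responsive genes, 6 were lower by 0.5 or more in general capillary ECs and none higher, against 3.44% of all genes tested there being lower. The 6 were Zbtb16 at -1.29, Map3k6 at -0.95, Fkbp5 at -0.94, Per1 at -0.90, Tsc22d3 (GILZ) at -0.73 and Klf9 at -0.70, and the list median was -0.71 against 0.022 for all genes. Fkbp5 was at 116 and 60.3 CPM. Sgk1, Dusp1, Errfi1 and Cdkn1c of the same list were between -0.037 and 0.19. In aerocytes 6 of 10 and in vein ECs 4 of 10 were lower by that size, against 2.61% and 4.62% of all genes tested in these classes. The list was drawn up with earlier results of the same libraries known, so these counts are a description and not a test.

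Of 12 NF-kB targets, 9 were higher by 0.5 or more and none lower, with a list median of 0.88. Of all genes tested in general capillary ECs, 6.19% were higher by that size. Sele, the EC adhesion molecule E-selectin, had 12 UMIs in the control and 268 in the metastatic library (4.56, 3.74 to 5.54), Bcl3 was at 16.1 and 43.5 CPM (1.44), Nfkb2 at 10.1 and 21.4 CPM (1.08) and Icam1 at 192 and 281 CPM (0.55). Tnfaip3, Relb, Vcam1, Cxcl1 and Traf1 lay between 0.86 and 0.93. Birc3 was at 33.8 and 33.7 CPM (-0.0039), and Nfkbia and Nfkb1 were not past 0.5 either. Of the 12 genes, 10 had a ratio above 0. These lists were drawn up with earlier results of the same libraries known.

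**Figure D5:**
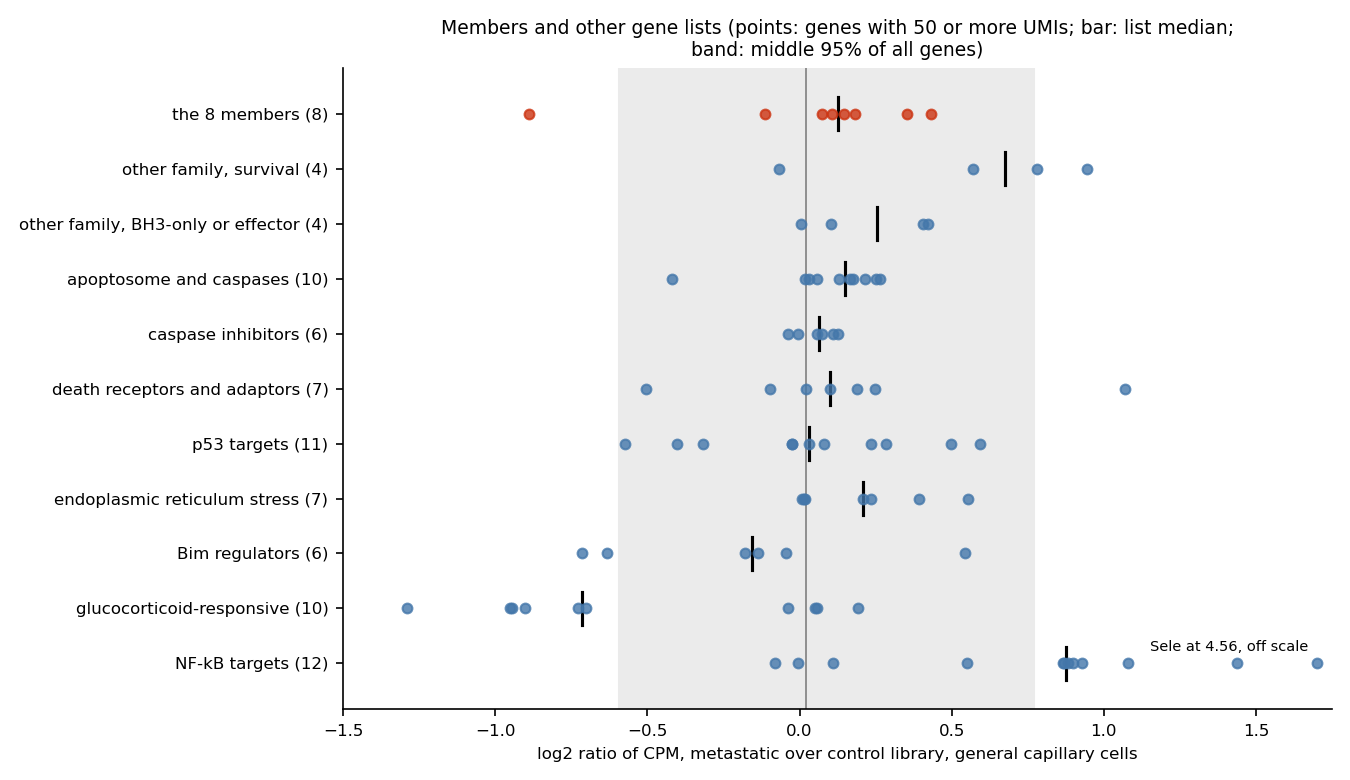
log2 ratio of the metastatic to the control library in general capillary ECs (horizontal axis) for the 8 genes (red) and the genes of each other list with at least 50 UMIs (blue; number in parentheses); vertical bars are list medians, the band the middle 95% of all genes (-0.59 to 0.77) and the gray line their median of 0.022. Bcl2l1 at -0.89 lies outside the band, and Sele at 4.56 is off the scale.

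The level of each gene over the 8 combinations of class and library was set beside that of 4656 other genes, as log2(CPM + 1). Closest to Bcl2l1 by Pearson's r were Zfp410 (0.97), Wasf2 (0.96) and Rbm3 (0.96), closest to Mcl1 were Pard3b (0.98), Sipa1l1 (0.97) and Thbd (0.97), and closest to Bax were Dcbld1 (0.99), Tmcc2 (0.99) and Cep170 (0.99). Bak1 was closest to Eloc, Ifi35 and Adprh, Bcl2l11 to Ube2h, Cntln and Rnf144a, Bcl2 to Rnps1, Tfg and Vps29, Bbc3 to Arrdc4, Tapbpl and Nr2f6, and Pmaip1 to Adgrl1, Ankrd13c and Rsbn1l. The points share libraries and depth, and with 8 points many genes reach high values of r.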

How the data were processed

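Single-cell 3′ RNA libraries were prepared from PECAM1-positive lung cells of 2 pooled mice per group. The labels name version 2 of the 3′ kit, whereas the barcode list in the files is longer than that kit's. The authors deposited raw UMI counts per gene and barcode, aligned to mm10 with Cell Ranger (3.1.0 per the file headers, another version in the study's methods). The annotation release is not given in the sources used here. Gene positions are from GENCODE M21 on GRCm38, and promoter sequences from RefSeq GRCm38.p6. All barcodes were deposited, so cells were called here by 1000 to 5000 genes and under 20% mitochondrial UMIs, the study's filter. Doublets were kept, apart from 46 and 32 cells that met several class rules and were left out of the classes. Scrublet (scanpy 1.11.5) scores served as an alternative, which marked 407 and 334 cells.

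UMIs were summed per class. CPM were given with exact Poisson intervals, ratios with exact conditional binomial intervals and shares with Clopper-Pearson intervals (scipy 1.17.1). With 1 library per group no test was made. PCR and cell sampling add error that these intervals, at a 95% level, do not cover. A gene counted as tested with at least 50 UMIs over both libraries of a class, and as higher or lower at a log2 ratio of 0.5 or more in size. Named genes were the 8 members, the genes of each list past 0.5 or among its 3 largest ratios in general capillary ECs, and the 3 genes most like each member. A few others of the lists (Bcl2l2, Birc3, Sgk1, Dusp1, Errfi1, Cdkn1c, Foxo1, Foxo4, Dusp6, Nfkbia, Nfkb1) were named after their values were seen. The members and lists were chosen with earlier results of these data known. A gene of the apoptosome and caspase list is not reported here and was left out of that list's count, range, median and plot. Alternatives changed the filters, class rule, doublets, scaling (TMM of edgeR 4.0.16 and median of ratios), depth and correction for free RNA. Interval code was tested on simulated data.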

Additional observations from a re-analysis of the deposited data

Results flagged for a closer look

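The log2 ratio of Pmaip1 was 0.85 (0.16 to 1.58) in vein ECs and -0.20 (-0.37 to -0.029) in aerocytes, so that the libraries differed in opposite directions in these classes. Each group was 1 library, and the difference between the classes was not tested. The vein value rests on 26 and 57 UMIs and was -0.045 with 3 or more class markers required.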

How the results depend on the processing

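The log2 ratios of the 8 genes in general capillary ECs were computed under 14 alternatives, and 94 of 109 values stayed within the counting interval of the main value. Bcl2l1 was lower under all 14, from -1.64 to -0.82 in general capillary ECs, and also in the other EC classes. The sign changed for 3 of the 109 values. Scaling by TMM or by the median of ratios moved all genes by at most 0.052.

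Thinning each cell to 2000 UMIs gave -0.82 for Bcl2l1, 0.017 for Bcl2l11 and 0.57 for Bcl2. Leaving out cells with 2 or more UMIs of other cell types' markers, which kept 428 control and 975 metastatic general capillary ECs, gave 0.85 for Bcl2, -1.13 for Bcl2l1, -0.21 for Mcl1 and -0.077 for Bak1. Leaving out cells with 10 or more such UMIs was added after seeing the data, and every value under it stayed within its main interval.

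Subtracting the RNA of barcodes with 11 to 50 UMIs, at a share set per class by the median of 10 genes that ECs should lack, gave -1.64 for Bcl2l1, -0.28 for Mcl1 and -0.0094 for Bbc3. Bcl2, Bax and Bak1 had no value there, since no UMIs were left in at least 1 library. That share came to 86.9% in control and 44.7% in metastatic general capillary ECs. Because of these values a second share, from the gene with the lowest ratio (21.7% and 27.3%), was added after the first had been seen. It gave 0.70 for Bcl2, -0.97 for Bcl2l1, -0.068 for Mcl1, 0.027 for Bax, 0.69 for Bak1 and 0.22 for Pmaip1. Under it Bcl2 and Bak1 were past 0.5, and Bcl2 was also past it with the 2-UMI limit and after thinning. Melanoma markers were at 5179 CPM in these barcodes of either library, the control included, against 1.71 and 2.03 CPM in ECs. The causes of these shifts were not tested.

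With 3 or more class markers Pmaip1 in vein ECs was -0.045. Artery values rest on too few UMIs to place most members. No paired analysis was possible because each group has 1 library, and for the same reason leaving out a replicate was not possible.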
